A study of Rattus norvegicus with 59 samples.

Results

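Dbp and Arntl are genes of the circadian clock. They were chosen by name from a table of lung gene expression because earlier results of the same data had shown a silica difference in both, and they are 2 of its 2888 gene entries. Both reached the level required for testing, an FPKM of 1 or more in 4 libraries or more, as did 1278 entries in all. FPKM is the number of sequenced fragments of a gene scaled to its transcript length and to the library's size.

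The study followed the lungs of male F344/DuCrl rats (Fischer F344, an inbred strain), 3 months old at purchase, after whole-body inhalation of air or of crystalline silica, the dust that causes silicosis. Silica was breathed at 15 mg/m3 for 6 h a day on 5 days. RNA of a lung piece was sequenced at 6 times, which were 1, 3 and 6 months and then 9, 12 and 18 months after exposure. Each of the 12 groups held 5 rats with 1 library each, except the 9-month air group with 4, giving 29 air and 30 silica libraries. Rats were kept 3 to a cage under a 12-h light and 12-h dark cycle, and the labels do not give the time of day at which lungs were taken. A piece of lung mixes many cell types, so fewer cells of a type and less RNA per cell cannot be told apart.

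The molecular clock is a feedback loop of transcription factors that runs in nearly every cell of the body, lung cells included. Arntl, named Bmal1 in current annotation, encodes BMAL1, which pairs with CLOCK and binds E-box sequences in front of the Per, Cry and Nr1d1 genes and of Dbp. The PER and CRY proteins then inhibit the pair, while REV-ERB proteins repress and ROR proteins activate Arntl through ROR elements, which closes a further loop. Dbp encodes a PAR bZIP transcription factor, an output of the clock that binds D-box sequences in front of rhythmic genes. In rodent tissues the transcripts of Dbp and Arntl are known to peak at nearly opposite times of day.

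The stretches in front of both genes are shown because they carry, or lack, the letters through which these loops are known to act. Each is the 250 bases before the start of the gene on the plus strand of chromosome 1, taken from RefSeq with build GRCr8, and both members matched an entry. Capitals mark 2 forms of the ROR element, GTAGGTTA and GTAGGTCA.
Dbp, chr1:105312006-105312255: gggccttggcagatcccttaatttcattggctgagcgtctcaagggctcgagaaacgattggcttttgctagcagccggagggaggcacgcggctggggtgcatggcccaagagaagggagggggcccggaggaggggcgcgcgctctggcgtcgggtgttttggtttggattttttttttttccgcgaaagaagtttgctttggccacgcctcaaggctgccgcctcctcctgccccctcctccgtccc
Arntl, chr1:176766078-176766327: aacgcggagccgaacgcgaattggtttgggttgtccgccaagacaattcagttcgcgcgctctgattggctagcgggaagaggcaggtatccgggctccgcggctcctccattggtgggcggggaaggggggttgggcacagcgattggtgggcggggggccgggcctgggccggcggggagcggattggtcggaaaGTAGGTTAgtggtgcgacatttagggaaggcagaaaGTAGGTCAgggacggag

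In the Arntl window GTAGGTTA lay 53 to 46 bases before the start and GTAGGTCA lay 17 to 10 bases before it, both on the plus strand. Searched on both strands of 33469 promoter windows of the same length, GTAGGTCA was found in 170 (0.508%) and GTAGGTTA in 90 (0.269%). The Arntl window was the only one of the 33469 with both (0.00299%). Only these exact spellings, both those of the Arntl window, were searched for. The share therefore does not tell how common paired ROR elements of other spellings are. The short ROR core AGGTCA, which overlaps the GTAGGTCA match, was found in 14.1% of windows. The E-box CACGTG was in 5.59% of windows and the D-box forms TTATGTAA and TTACGTAA in 0.828% and 0.108%. None of these letters occurred in the Dbp window, and neither the E-box nor the D-box forms occurred in the Arntl window, which says nothing of sites elsewhere in either gene.

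Dbp was the more variable of the pair. Its level ran from 1.27 to 10.9 FPKM over the 59 libraries, an 8.52-fold range, with a mean of 4.10 FPKM. Arntl ran from 3.41 to 9.12 FPKM, a 2.68-fold range, with a mean of 6.51 FPKM. The SD between rats of the same group was 0.45 for Dbp and 0.19 for Arntl on the log2(FPKM + 0.5) scale, used for all log2 values here. The median of the 1278 tested genes was 0.16, and Dbp ranked 51 from the highest and Arntl 450.

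One month after exposure, Dbp was 1.27, 1.57, 1.61, 2.39 and 2.56 FPKM in the air libraries and 2.73, 3.04, 3.29, 4.35 and 6.40 FPKM in the silica libraries. All silica libraries lay above all air libraries, with means of 3.96 ± 1.49 and 1.88 ± 0.560 FPKM (SD, n = 5 each), a 1.84-fold difference on the fitted scale. Groups that do not overlap were seen in 8.84% of the tested genes at that time. At 3 months the order turned: Dbp was 3.62, 4.58, 5.17, 6.34 and 7.95 FPKM in air and 1.42, 2.12, 2.37, 3.08 and 3.15 FPKM in silica. Here every silica library lay below every air library (12.7% of tested genes did not overlap), and air exceeded silica 2.05-fold.

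At 6 months Dbp was 1.48, 1.62, 2.02, 2.04 and 2.65 FPKM in air and 2.07, 3.99, 4.27, 4.43 and 5.16 FPKM in silica. A single silica library, at 2.07 FPKM, lay within the air range, and the other 4 lay above it. At 9 months the 4 air libraries held 1.75, 1.95, 3.35 and 4.01 FPKM and the silica libraries 5.05, 6.00, 6.19, 7.39 and 8.11 FPKM. The groups did not overlap (24.6% of tested genes), and the fitted fold was 2.23. At 12 months Dbp was 2.87, 3.15, 4.56, 5.82 and 6.43 FPKM in air and 1.86, 4.52, 5.28, 5.70 and 10.9 FPKM in silica. The silica group held both the lowest and the highest library of that time and overlapped air (3.36% of tested genes did not overlap). At 18 months the air libraries held 2.77, 3.12, 3.33, 3.68 and 4.65 FPKM and the silica libraries 3.29, 4.89, 5.56, 6.55 and 10.3 FPKM. Of the silica libraries 4 lay above the whole air group and 1 lay within it.

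Arntl moved the other way, over a narrower range. At 1 month it was 6.66, 7.06, 7.68, 8.32 and 9.12 FPKM in air and 5.90, 6.93, 7.15, 7.55 and 7.81 FPKM in silica, with the groups overlapping. At 3 months it was 4.37, 5.37, 5.59, 6.30 and 7.55 FPKM in air and 6.18, 6.40, 6.60, 6.62 and 8.39 FPKM in silica. This was the only time at which mean Arntl was higher in silica, and the groups overlapped. At 6 months it was 7.31, 7.43, 8.21, 8.39 and 8.79 FPKM in air and 5.50, 5.65, 6.54, 6.70 and 7.18 FPKM in silica. All silica libraries lay below all air libraries at 6 months, as in 25.2% of tested genes the groups did not overlap in one direction or the other.

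At 9 months Arntl was 6.98, 6.98, 7.99 and 8.37 FPKM in air and 4.60, 4.63, 4.72, 4.91 and 5.07 FPKM in silica. The silica libraries were tightly grouped (4.79 ± 0.199 FPKM, SD, n = 5) and far below air (7.58 ± 0.711 FPKM, SD, n = 4), a 1.53-fold difference without overlap. At that time 24.6% of tested genes did not overlap. At 12 months the values were 4.97, 5.38, 6.37, 6.44 and 7.82 FPKM in air and 3.41, 5.21, 5.41, 5.94 and 6.73 FPKM in silica, which overlapped. The library with the lowest Arntl of all 59, at 3.41 FPKM, was the one with the highest Dbp, at 10.9 FPKM. At 18 months Arntl was 6.26, 6.48, 6.998, 7.55 and 8.51 FPKM in air and 4.85, 5.12, 5.31, 5.68 and 6.12 FPKM in silica. These did not overlap (11.1% of tested genes), and air exceeded silica 1.29-fold.

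**Figure D1:**
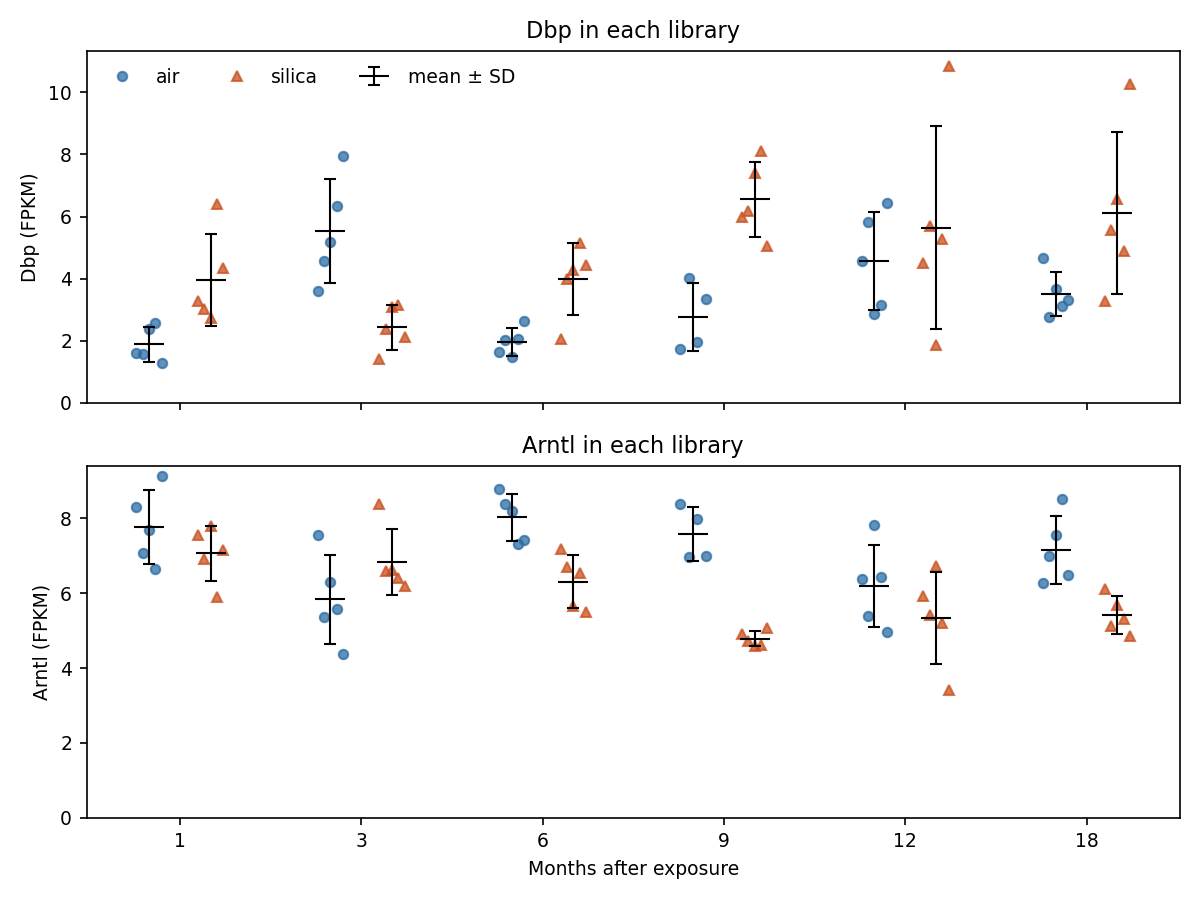
Dbp and Arntl in every library (FPKM, vertical axis) by months after exposure, for air and silica rats. Points are libraries and the bars give mean ± SD. Mean Dbp is higher in silica at 5 of 6 times and lower at 3 months, and mean Arntl is the reverse.

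Ordered by mean level, the 12 groups formed a continuous series for each gene. Mean Dbp rose from 1.88 FPKM (1-month air) through 1.96 (6-month air), 2.43 (3-month silica), 2.77 (9-month air), 3.51 (18-month air), 3.96 (1-month silica) and 3.98 (6-month silica) to 4.57 (12-month air), 5.53 (3-month air), 5.65 (12-month silica), 6.11 (18-month silica) and 6.55 FPKM (9-month silica). Mean Arntl started with the groups high in Dbp, at 4.79 FPKM in 9-month silica, 5.34 in 12-month silica, 5.42 in 18-month silica and 5.83 in 3-month air. It went on with 6.20 (12-month air), 6.31 (6-month silica), 6.84 (3-month silica), 7.07 (1-month silica), 7.16 (18-month air), 7.58 (9-month air), 7.77 (1-month air) and 8.03 FPKM (6-month air). No neighbours in either order differed by more than the larger of their 2 SDs. Over the 12 group means on the log2 scale the pair had r = -0.92 and over the 6 silica minus air differences r = -0.87, both given as descriptions since the genes were chosen on those differences. Among tested genes with a symbol and a mean of at least 1 FPKM, the partner had the lowest r over the group means. Over the 6 differences it ranked 6 from the lowest for Dbp and 8 for Arntl.

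The silica minus air difference of Dbp was 0.88 ± 0.27 at 1 month, -1.04 ± 0.27 at 3, 0.84 ± 0.27 at 6, 1.15 ± 0.29 at 9, 0.17 ± 0.27 at 12 and 0.65 ± 0.27 at 18 months (log2, ± SE). That of Arntl was -0.13 ± 0.12, 0.22 ± 0.12, -0.33 ± 0.12, -0.61 ± 0.12, -0.21 ± 0.12 and -0.37 ± 0.12 at the same times. The mean of the 6 differences was 0.44 ± 0.11 for Dbp and -0.24 ± 0.048 for Arntl. No test is given for these values, because the pair was chosen on this contrast. For comparison, 8.84%, 18.2%, 27.6%, 30.8%, 23.6% and 15.3% of the tested genes passed an adjusted p of 0.05 in either direction from 1 to 18 months (limma), and 28.9% differed between the air groups. The 12-month Dbp value moved in opposite directions with single libraries: it was -0.10 without silica replicate 5 (10.9 FPKM) and 0.47 without silica replicate 3 (1.86 FPKM).

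**Figure D2:**
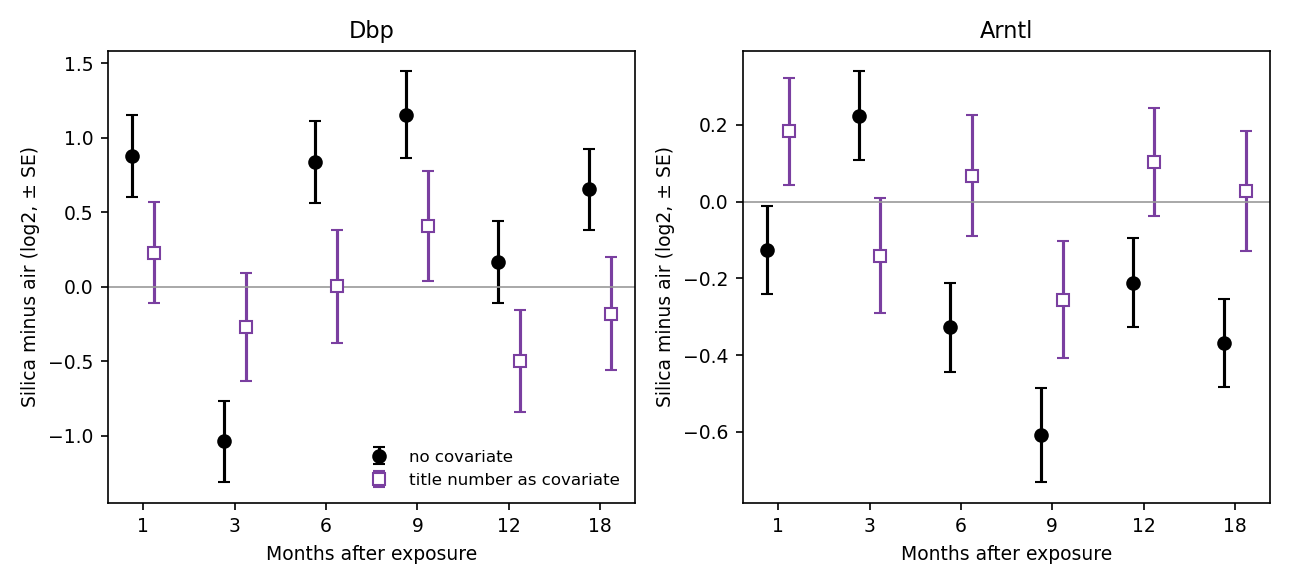
Silica minus air difference (log2, vertical axis) of Dbp and Arntl at each month after exposure, with ± SE bars, as fitted and with the number in the library title as a covariate. The fitted Dbp values run from -1.04 to 1.15 and change sign at 3 months, where the Arntl value is positive.

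Rats of the same group also differed in a mirrored way, and this spread had no part in the choice of the genes. Each library's deviation from its group mean was taken for both genes on the log2 scale. Over the 59 libraries the deviations had r = -0.80 (rho = -0.74, permutation p = 1e-05 for each, two-sided, the smallest that 100000 permutations within groups can give). In the 29 air libraries r was -0.78 (p = 3e-05) and rho -0.76 (p = 7e-05), and in the 30 silica libraries r was -0.82 (p = 1e-05) and rho -0.70 (p = 9e-05, all by permutation). Adjusted over these 3 relations, the p-values of r were 1.5e-05, 3e-05 and 1.5e-05. Without the 2 libraries farthest in Dbp, r was -0.74 over all, -0.76 in air and -0.72 in silica. The mirrored spread was thus seen in air rats and in silica rats alike.

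The slope was shallow, with Arntl lower by 0.33 for each log2 unit of Dbp (0.40 in air and 0.30 in silica). The genes lay on opposite sides of their group means in 42 of 59 libraries, 22 of 29 in air and 20 of 30 in silica. By time, r was -0.78 at 1 month, -0.81 at 3, -0.63 at 6, -0.96 at 9, -0.92 at 12 and -0.58 at 18 months. The permutation p adjusted over the 6 times was 0.0218, 0.0193, 0.0706, 0.0116, 0.0116 and 0.0656 in that order, so the relation had the same sign at all 6 times and passed the threshold of 0.05 at 4. The ratio of Dbp to Arntl in FPKM spanned 0.140 to 3.18 with a median of 0.514, and its group medians ran from 0.222 in 1-month air to 1.31 in 9-month silica.

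**Figure D3:**
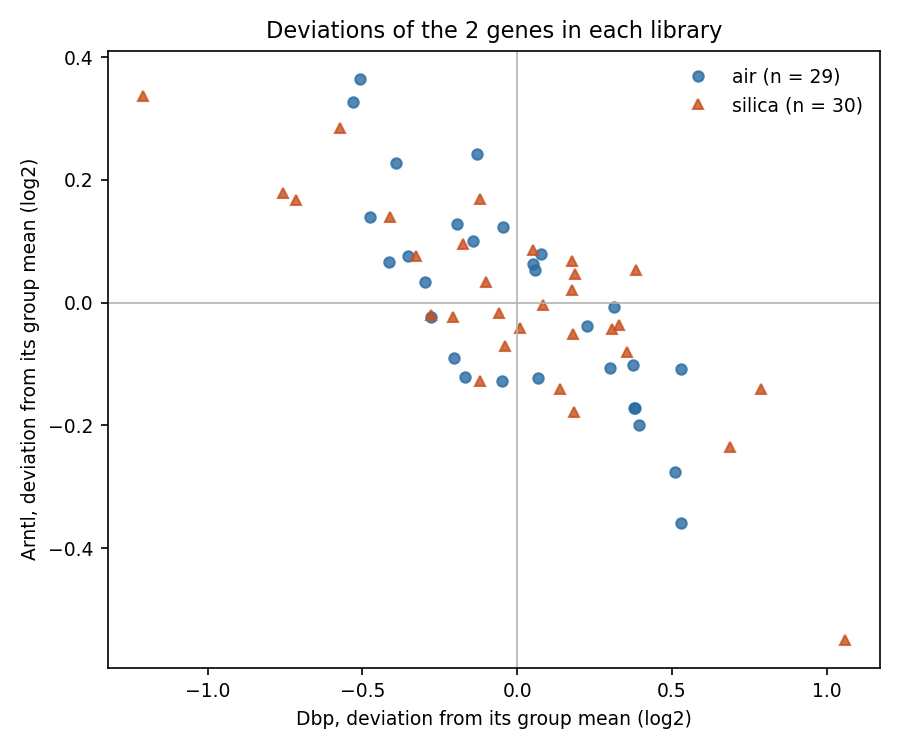
Deviation of Arntl from its group mean (log2, vertical axis) against that of Dbp (log2, horizontal axis), 1 point per library, for air and silica. The points fall along a descending line in both sets, with r = -0.78 in air and -0.82 in silica.

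No other tested gene had as low an r with either member. Among the 1277 other tested genes, Arntl had the lowest r with Dbp in air, in silica and in all libraries, and Dbp the lowest with Arntl. The next lowest r with Dbp was -0.53 in air (LOC102556224) and -0.58 in silica (LOC102549117), and the next lowest with Arntl was -0.56 in air (Fbxo30) and -0.64 in silica (Tmem160). The highest were 0.62 (LOC103691004, air) and 0.69 (Orai3, a calcium channel subunit, silica) with Dbp and 0.72 (LOC102556224, air) and 0.59 (Zfp28, a zinc finger gene, silica) with Arntl. Taking r over all other genes, 5% lay below -0.27 and 5% above 0.37 for Dbp in air.

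Genes that followed a member in air were then looked up in silica, whose rats had no part in naming them. For each member the 10 highest and 10 lowest r in air were taken, among genes with a symbol and a mean of at least 1 FPKM. This gave 39 distinct relations, since the members name each other. The relation between the members passed in silica (permutation p adjusted over the 39 = 0.00039). Of the other 38, over 32 genes, 0 passed, 0 had an unadjusted p under 0.05, and 15 of 38 kept their sign. Their r was 0.39 to 0.67 in size in air and ran from -0.27 to 0.42 in silica. L3mbtl3, a chromatin reader, went from 0.67 with Arntl in air to -0.21 in silica, and Zfp14 from 0.55 with Dbp to -0.05. Fbxo30, a ubiquitin ligase subunit, went from -0.56 with Arntl to -0.01, and Polr3e, a subunit of RNA polymerase III, from 0.55 to -0.02.

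Among these 38 relations the closest to carrying over was that of Pak1, a kinase that acts on the actin cytoskeleton. Pak1 had r = 0.53 with Dbp in air and 0.42 in silica (permutation p = 0.115, adjusted 0.967 over 40 entries that hold the members' relation from either side). Its silica value fell to 0.07 without the 2 libraries farthest in Dbp. Across all genes, the r with Dbp in air and the r with Dbp in silica had a correlation of -0.05 (Arntl left out), and those with Arntl likewise one of -0.05 (Dbp left out). Genes are not independent of each other, so these last values only describe the table. An r of at least 0.4 in size with the same sign in both sets was reached with Dbp by 5 genes (Arntl, Vasp, Pak1, Ptpre and LOC102546648), of 51 in air and 104 in silica. With Arntl it was reached by 4 (Dbp, Wdr93, LOC102546648 and LOC102556224), of 58 in air and 73 in silica. LOC102546648 was on both lists, at -0.42 and -0.46 with Dbp and 0.63 and 0.46 with Arntl in air and silica, at a mean of 1.11 FPKM.

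**Figure D4:**
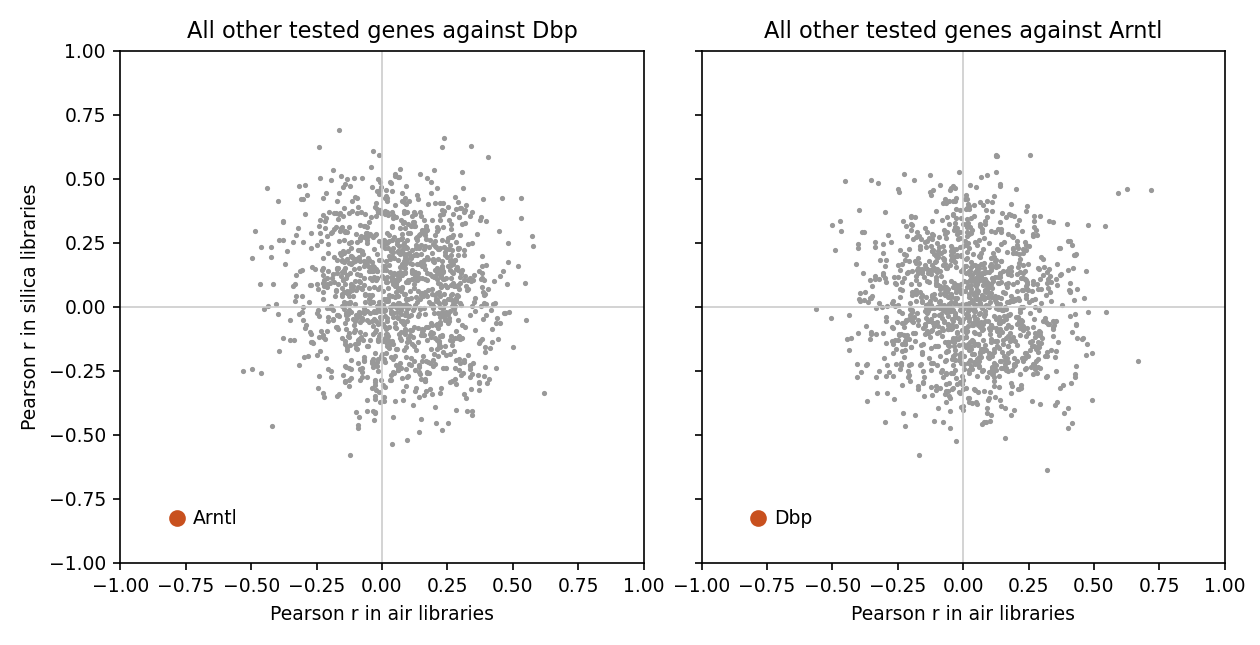
Within-group r of each tested gene with Dbp and with Arntl, in air libraries (horizontal axis) against silica libraries (vertical axis). The partner gene lies alone near -0.8 on both axes, and the other genes form a round cloud about 0.

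Ranked by likeness over the 12 group means, the genes nearest Dbp were Zc3h12d (r = 0.82), Sertad3 (0.81) and Uevld (0.80), and those nearest Arntl were Zfp329 (0.90), Zfp141 (0.82) and Akip1 (0.81). Over the 6 silica minus air differences, Dctpp1 (0.94) and Zfp383 (0.94) were nearest Dbp and Zfp628 (0.97) and Lyrm1 (0.96) nearest Arntl. Zfp329 was near Arntl on both measures (0.95 over the differences). The genes were sought among those with a symbol and a mean of at least 1 FPKM. With 12 and 6 points and many genes to choose from, these likenesses are descriptions. The genes beside the members in RefSeq order did not share their pattern: r over all libraries was -0.14 for Car11 and 0.22 for Sphk2 with Dbp, and 0.16 for Btbd10 with Arntl.

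The table holds mostly genes of chromosome 1, so few other clock genes could be set beside the pair. Of 54 further clock genes listed, 3 were in the table, and the Per, Cry, Nr1d and Ror genes and Clock were not analysed here. In the mean of the 6 silica minus air differences, where 57.6% of tested genes passed the adjusted threshold (limma), all 3 passed. Gsk3a, a kinase that acts on clock proteins, rose by 0.19 ± 0.040 (adjusted p = 5.33e-05) and Usf2, an E-box binding factor, rose by 0.17 ± 0.027 (7.05e-07). Ube3a, a ubiquitin ligase that acts on BMAL1, fell by 0.064 ± 0.026 (0.0334). The 3 had a median of 0.17, against 0.03 over all tested genes. None of the 3 passed limma's F test for variation between times, which 1.33% of tested genes passed. This does not show a constant difference: that of Gsk3a ran from 0.004 at 9 months to 0.34 at 12 months. With the number in the library title as a covariate, 0 of the 3 passed in the mean of the differences: Gsk3a was 0.14 ± 0.075, Usf2 0.12 ± 0.051 and Ube3a 0.008 ± 0.049. The within-group r of Ube3a was 0.07 in air and 0.51 in silica with Arntl, and -0.06 and -0.41 with Dbp. That of Gsk3a was -0.04 and -0.12 with Arntl and 0.15 and 0.35 with Dbp. That of Usf2 was -0.09 and -0.01 with Arntl and 0.21 and 0.11 with Dbp.

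Of 36 genes listed as clock outputs, 6 were tested and 3 rose in that mean, where 37.5% of tested genes passed as higher: Ucp2, a mitochondrial carrier (0.37 ± 0.051, adjusted p = 2.34e-08), Gys1, muscle glycogen synthase (0.16 ± 0.029, 6.40e-06), and Ampd3, an AMP deaminase (0.10 ± 0.040, 0.0205). Wee1, a cell cycle kinase whose promoter is a textbook E-box target of the clock, had -0.06 (adjusted p = 0.139), Klf13 0.10 (0.153) and Tsku -0.01 (0.881). The list's median was 0.10. Wee1 was the one tested output with a positive within-group r with Dbp and a negative one with Arntl in both sets. It had 0.21 and 0.23 with Dbp and -0.32 and -0.25 with Arntl in air and silica. Genes of other lists had the same signs, among them Gsk3a, Usf2, Cyp2b2 and Cyp2e1. So did the epithelial marker Napsa, at 0.34 and 0.35 with Dbp and -0.39 and -0.25 with Arntl. Since the members' own r was -0.80, opposite signs with them are not separate results. The share of all tested genes with these signs is not given here. After median centring of the libraries Ampd3 no longer passed (adjusted p = 0.347) and Wee1 was lower at -0.12 (0.00117), and likewise after quantile normalization (0.155 and 0.00615).

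Glucocorticoids, adrenal hormones that follow the day, also act on clock genes. Of 36 listed responsive genes 5 were tested and 3 rose in the mean of the differences, where 37.5% of tested genes passed as higher: Cebpa, a transcription factor (0.47 ± 0.043, adjusted p = 1.67e-13), Sgk1, a kinase (0.29 ± 0.041, 2.86e-08), and Ampd3, which is on both lists. Sult1a1 (-0.02) and Ctgf (0.02) did not pass. Under quantile normalization the list had 2 higher (Cebpa and Sgk1) and 2 lower, Ctgf at -0.10 (adjusted p = 0.0491) and Sult1a1 at -0.14 (0.0125), while Ampd3 did not pass, as given above. Enzymes of xenobiotic metabolism are known targets of PAR bZIP factors. Of 40 listed, 8 were tested and 2 fell: Cyp2e1 by 0.32 ± 0.084 (adjusted p = 0.00119) and Cyp2b2 by 0.24 ± 0.049 (3.85e-05), where 20.1% of tested genes passed as lower. The list's median was -0.07, and after quantile normalization 4 passed as lower, with Cyp2t1 (-0.13) and Sult1a1 (-0.14) added. Under that scaling the median of all tested genes was -0.04, against 0.03 without it. The shares of all genes passing as higher or lower under it are not given here. Within groups the r of Cyp2e1 with Dbp was 0.39 in air and 0.11 in silica, and that of Cyp2b2 was 0.30 and 0.13.

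Cell markers also moved with silica. All 6 tested myeloid markers of 9 listed (Itgam, Itgax, Cd177, C5ar1, Cd33 and Tyrobp) rose in the mean of the differences, where 37.5% of tested genes passed as higher, with a summed level of 77.9 to 121.8 FPKM in air and 83.0 to 234 FPKM in silica. With the title number as a covariate all 6 still passed, at 0.53 to 1.73. Within groups their mean had r = 0.09 with Dbp and 0.10 with Arntl in air, and 0.40 and -0.29 in silica. Lung epithelial markers (Napsa, Lpcat1 and Cyp2f4) were present in all libraries, summing to 127.8 FPKM or more, and had r = 0.12 with Dbp and -0.01 with Arntl over all libraries. In the mean of the differences Napsa (0.64) and Lpcat1 (0.67) rose and Cyp2f4 had -0.20 (adjusted p = 0.297). All 3 endothelial markers fell (Ehd2, Rasip1 and Myct1, median -0.26), as did the adipocyte marker Lipe (-0.34) and the muscle marker Cox8b (-0.49), 1 of 5 tested. Of 3 erythrocyte markers Hbb (-0.41) and Hbb-b1 (-0.42) fell, though Hbb was at 0.06 after quantile normalization (adjusted p = 0.681). Of 3 T cell markers Itgal rose (0.27) and Spn fell (-0.11). With the title number as a covariate Napsa, Lpcat1, Ehd2, Rasip1, Lipe and Itgal still passed in that mean. Under it Myct1 (-0.10, limma adjusted p = 0.468), Cox8b (-0.59, 0.225) and Hbb (-0.03, 0.896) did not pass. Hbb-b1 (-0.15, 0.547) and Spn (0.02, 0.934) did not pass either. For T cell, endothelial, striated muscle, erythrocyte and adipocyte markers r ran from -0.25 to 0.12 with Dbp and from 0.07 to 0.27 with Arntl. The part of cell mixture in the silica differences of Dbp and Arntl was not tested. Relative depth differed 5.26-fold between libraries, and within groups its r was -0.04 with Dbp and -0.07 with Arntl (permutation p = 0.748 and 0.52). The library median had r = 0.31 with Dbp (permutation p = 0.036, adjusted over 4 relations 0.144) and -0.07 with Arntl.

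Each library title ends in a number, and the labels do not say what it stands for. At every time the numbers of the air and silica groups did not overlap, and their means lay 10 to 12.8 apart. Silica rats had the higher numbers at 5 of 6 times (for example 133 to 137 against 123 to 127 at 1 month). At 3 months they had the lower ones, 145 to 150 against 157 to 161, and that is the time at which both genes changed direction. At all 6 times the group with higher numbers had the higher mean Dbp and the lower mean Arntl. Since the number separates the groups at each time, it and silica cannot be told apart there.

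Within groups, where silica is constant, the number could be tested, though it was taken up after the values had been seen. Over the 59 libraries Dbp had r = 0.39 with the number (permutation p = 0.0224, adjusted over both genes 0.0224) and rho = 0.31 (p = 0.0366). Arntl had r = -0.44 (permutation p = 0.00506, adjusted 0.0101) and rho = -0.39 (p = 0.00571). Without the 2 libraries whose numbers lay farthest from their group means r was 0.28 and -0.32. In silica libraries r was 0.54 for Dbp (permutation p = 0.013) and -0.66 for Arntl (p = 0.00117), and in air libraries it was 0.17 (p = 0.513) and -0.21 (p = 0.325). Whether air and silica differ in this was not tested. The sign was the same at all 6 times for both genes, with r of 0.24 to 0.81 for Dbp and -0.84 to -0.09 for Arntl, and in 9 of 12 groups for each. Without 12-month silica replicate 5, the library highest in Dbp, the Dbp value was 0.28 (permutation p = 0.0821).

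Per unit of the number, Dbp was higher by 0.065 ± 0.022 and Arntl lower, at -0.031 ± 0.0091 (log2, limma, slope shared by all groups). Among 1278 genes Arntl ranked 4 and Dbp 23 by p, but adjusted over all genes neither passed (0.271 for Dbp and 0.200 for Arntl). By limma 0 of 1278 genes passed, and 118 had an unadjusted p under 0.05. With the number replaced by its rank within the group, Arntl ranked 1 and Dbp 2 of 1278, again without passing (limma, adjusted p = 0.707). Then 0 genes passed and 70 of 1278 had an unadjusted p under 0.05. As the members mirror each other within groups, their places in this order are not separate results.

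The slope times the gap in mean number can be set beside each difference. For Dbp this product was 0.65, -0.77, 0.83, 0.75, 0.66 and 0.83 from 1 to 18 months, against observed differences of 0.88, -1.04, 0.84, 1.15, 0.17 and 0.65. For Arntl it was -0.31, 0.36, -0.40, -0.35, -0.32 and -0.40, against -0.13, 0.22, -0.33, -0.61, -0.21 and -0.37. The products had the sign of the observed difference at all 6 times for both genes. That match follows from the sign of the slope and the order of the groups given above, and is not a separate result. The gaps of 10 to 12.8 were wider than the span of numbers within most groups, and the products are given without an error. Whether the number accounts for the differences was not tested. With the number as a covariate, the mean of the 6 differences became -0.05 ± 0.20 for Dbp and -0.002 ± 0.081 for Arntl. Their errors were larger than without the number (0.11 and 0.048). Genes passing in that mean numbered 326 with the covariate and 736 without it. The pair's own relation remained after regression on the number within groups, with r = -0.75 over all libraries.

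**Figure D5:**
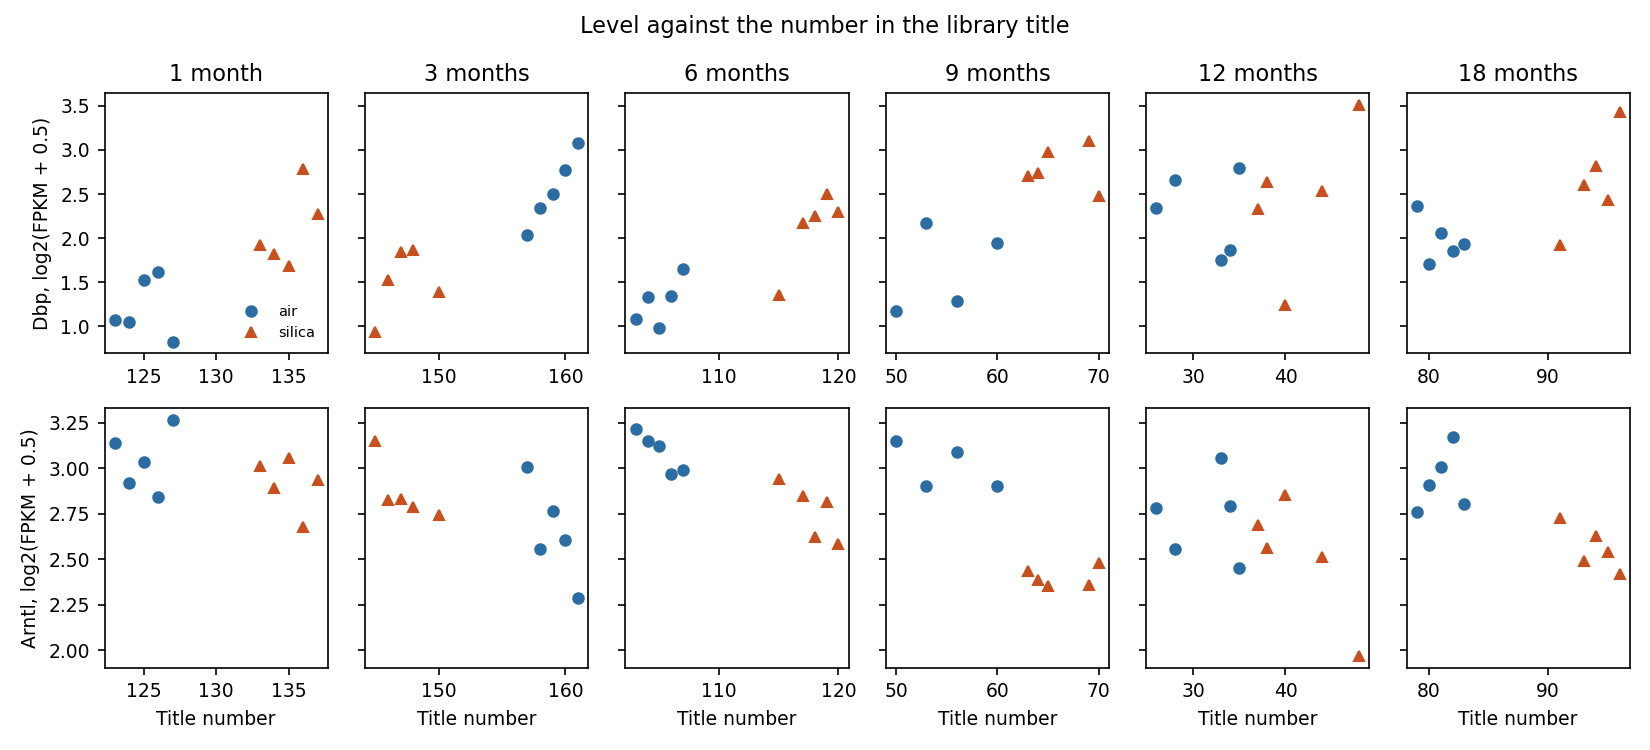
Dbp and Arntl (log2(FPKM + 0.5), vertical axes) against the number that ends each library title (horizontal axis), for air and silica at each time. Air and silica numbers do not overlap at any time, silica numbers are the lower ones only at 3 months, and Dbp is higher and Arntl lower in the group with the higher numbers at all 6 times.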

How the data were processed

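RNA from a piece of lung of 59 rats was isolated with miRNeasy kits including DNase and sequenced after TruSeq Stranded Total RNA preparation with Ribo-Zero Gold, per the labels' protocols. Cufflinks 2.1.1, Bowtie2 2.2.9, TopHat2 2.0.9, Trimmomatic 0.35 and bcl2fastq 2.19 are named per the submitters' processing notes. Build and annotation are not given in the sources used here. In the table the authors deposited, values are FPKM, per its name. No count model was applied, since FPKM are scaled values. The last entry held 31 of 59 values and was left out, which left 2887. FPKM summed to 12818 to 38613 per library over the entries present, and steps in low values gave a relative depth of 0.431 to 2.27, but whole reads could not be recovered.

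Genes at 1 FPKM or more in 4 libraries or more (1278, 44.3%) were fitted on log2(FPKM + 0.5) with limma 3.58.1 (R 4.3.3), which understates changes of low genes. All 12 groups entered 1 fit with 47 residual degrees of freedom, with Benjamini-Hochberg adjustment over tested genes and a threshold of 0.05. Each time had its own air group. Correlations used deviations from group means, with 100000 permutations within groups, in Python 3.11.15. Named genes were the 10 highest and 10 lowest r with each member in air among genes with a symbol and a mean of at least 1 FPKM, and the nearest genes by group means and by differences. The fit was checked on simulated data. Alternatives were other pseudocounts, filters and scalings, fits by time, and leaving out each library or time. The members and gene lists were chosen with earlier results of these data known. P-values set differences, slopes or correlations against the spread between rats of a group. The cage of each rat is not given in the sources used here, so rats that shared a cage were treated as independent.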

Additional observations from a re-analysis of the deposited data

Results flagged for a closer look

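The silica minus air difference of Dbp was in opposite directions at different times with no overlap between the groups' libraries. It was 0.88 at 1 month and 1.15 at 9 months, where every silica library was higher, and -1.04 at 3 months, where every silica library was lower (log2). Of all tested genes, 8.84%, 12.7% and 24.6% did not overlap between air and silica at 1, 3 and 9 months. The difference between these times was not tested, since Dbp was chosen on this contrast.

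Arntl in 3-month silica replicate 1 was 8.39 FPKM, apart from the other 4 silica libraries of that time at 6.18 to 6.62 FPKM. On the log2(FPKM + 0.5) scale its gap to the nearest of them was 0.777 of the group's range, above the critical value of 0.71. It was the only such library in 24 groups of values examined, and chance alone gives about 1 in 20.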

How the results depend on the processing

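The relation between Dbp and Arntl within groups kept its sign and passed under every alternative run. Without 1 library at a time r ran from -0.81 to -0.75 over all libraries, -0.81 to -0.75 in air and -0.85 to -0.78 in silica. Without 1 time at a time the smallest values came without the 12-month groups (-0.72, -0.73 and -0.74). The relation between the members passed in silica, and 0 of the others named in air did, in every setting run. The pseudocounts of 0.1 and 1, no filter and the stricter filter (2 FPKM or more in 10 libraries or more) left all 32 results recomputed under each within their bounds.

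The title number as a covariate, chosen after seeing the data, changed most values. The Dbp difference became 0.23, -0.27, 0.0033, 0.41, -0.50 and -0.18 at the 6 times in order, with a mean of -0.051, and that of Arntl 0.18, -0.14, 0.068, -0.25, 0.10 and 0.027, with a mean of -0.0021. Genes passing became 23, 153, 106, 115, 55 and 14 at those times, where 113, 233, 353, 393, 302 and 196 passed without it, 326 in the mean of the 6, 6 for variation between times and 213 between air groups. The clock list then had 0 genes passing and the xenobiotic list 1, although Gsk3a (0.14), Usf2 (0.12) and Cyp2e1 (-0.37, SE 0.16 against 0.084) kept much of their size under larger errors. Median centring gave 65 genes at 1 month, quantile normalization gave 4 xenobiotic genes, and fits of 1 time alone gave 1 gene at 12 months and 130 at 18 months. The cause of these changes was not tested.

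Without 1 library at a time, genes passing ran from 44 to 136 at 1 month, 163 to 258 at 3, 292 to 385 at 6, 319 to 412 at 9, 194 to 457 at 12 (lowest without silica replicate 1, highest without silica replicate 3 of that time) and 112 to 231 at 18 months. They ran from 725 to 761 in the mean, 10 to 78 for variation between times (78 without 12-month silica replicate 3) and 302 to 439 between air groups. The Dbp difference ran from 0.71 to 0.98, -1.16 to -0.89, 0.74 to 1.02, 1.00 to 1.33, -0.099 to 0.47 and 0.46 to 0.83, and that of Arntl from -0.18 to -0.067, 0.13 to 0.32, -0.37 to -0.28, -0.64 to -0.56, -0.30 to -0.074 and -0.41 to -0.31. Dbp against the title number ran from 0.275 to 0.430 and Arntl from -0.50 to -0.31.

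No paired analysis was possible because replicate numbers were given in accession order and each title number belongs to 1 library. FPKM carry no counts, so counting error in single values is unknown, and 4 or 5 rats a group limit the precision. The table covers mostly 1 chromosome, so genes elsewhere that follow the pair were not analysed here.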
